A study of Mus musculus with 6 samples.

Results

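The secreted Wnt antagonists described here are the 9 genes Wif1, Frzb, Sfrp1, Sfrp2, Sfrp4, Sfrp5, Dkk1, Dkk2 and Dkk3. They were found by gene name on a 1-colour Agilent mouse array, where 11 of 41174 distinct probes carry one of these names: Dkk1 and Sfrp1 have 2 probes each and the others 1. All 11 probes were well above background on all 6 arrays, so no member was lost to the filter on dim probes, which left 27831 probes of 15015 named genes. Whole mouse embryos collected at E8.5 (embryonic day 8.5) gave the RNA, with 1 array per sample. The compared groups were 3 Brg1d/d embryo samples (Brg1 CKO, a conditional knockout, below CKO 1 to 3) and 3 Brg1fl/fl samples (labelled wild type for Brg1, below controls 1 to 3). Tamoxifen was given to the pregnant mother in both groups, per the labels. The labels name neither the Cre transgene nor its promoter, and do not say if embryos were pooled. Brg1 (gene symbol Smarca4) is the ATPase of SWI/SNF chromatin remodelling complexes.

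Wnt proteins are secreted ligands that bind Frizzled receptors and, for the branch that runs through beta-catenin, the co-receptors Lrp5 and Lrp6. Wif1 and the Frizzled-related proteins (Frzb and the Sfrp genes) bind Wnt proteins outside the cell and keep them from their receptors. Dkk1 and Dkk2 bind the co-receptors instead, together with the Kremen proteins, while Dkk3 is a divergent member of that family. In the mouse embryo Dkk1 is required for formation of the head, and Sfrp1, Sfrp2 and Sfrp5 act redundantly in elongation of the trunk.

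Some facts of the arrays bear on every value below. Levels are log2 signals from which the 75th percentile of the same array was subtracted, and differences are CKO minus control on that log2 scale. The level of the brightest Smarca4 probe was 1.49 to 2.65 in CKO and 4.45 to 5.28 in control, and all 3 Smarca4 probes fell (differences of -2.08 to -2.69, limma adjusted p 0.00538 to 0.0129), although a probe can lie outside the deleted exons. Scanning took place on 3 days, with CKO 2 on the same day as all controls and the other CKO arrays on separate days. CKO 1 and CKO 3 also had a far lower signal of the brightest spike-in control (12934 and 6905 units) than the other 4 arrays (208550 to 241121 units). All controls came from 1 slide and no CKO array shared a slide with another, so slide and genotype cannot be told apart. Control 1 was lower than the other controls in markers of yolk sac and red cells, and higher in heart, neural and somite markers. Those values follow the results on the Wnt genes. A same-day difference (CKO 2 minus the mean of the 3 controls) is given beside the main difference of each member. Precision is limited by having 3 arrays per genotype, and p-values measure the spread between these samples.

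In CKO embryos Wif1, Frzb and Dkk1 rose and Dkk3 fell, each past an adjusted p of 0.05 in limma over all 27831 probes. The rises were 4.40-fold for Wif1, 3.33-fold for Frzb and 2.27-fold for Dkk1, and the fall of Dkk3 was 3.05-fold. Sfrp1, Sfrp2, Sfrp4, Sfrp5 and Dkk2 missed the threshold. Thus 3 of 9 genes were called higher and 1 lower. Among all 15015 genes the background share of calls was 5.24% higher and 5.32% lower, or 10.6% in either direction. The values of the genotypes did not overlap in 6 of the 9 genes, against 42.0% of all genes (22.8% higher and 19.2% lower in CKO). The median difference of the 9 genes was 0.27, beside 0.07 over all genes, and the median absolute difference was 1.18, beside 0.38. The members were chosen with results of these arrays known, so these shares describe the family and test nothing about it. In a whole embryo, fewer cells of a type and less RNA per cell cannot be told apart.

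**Figure D1:**
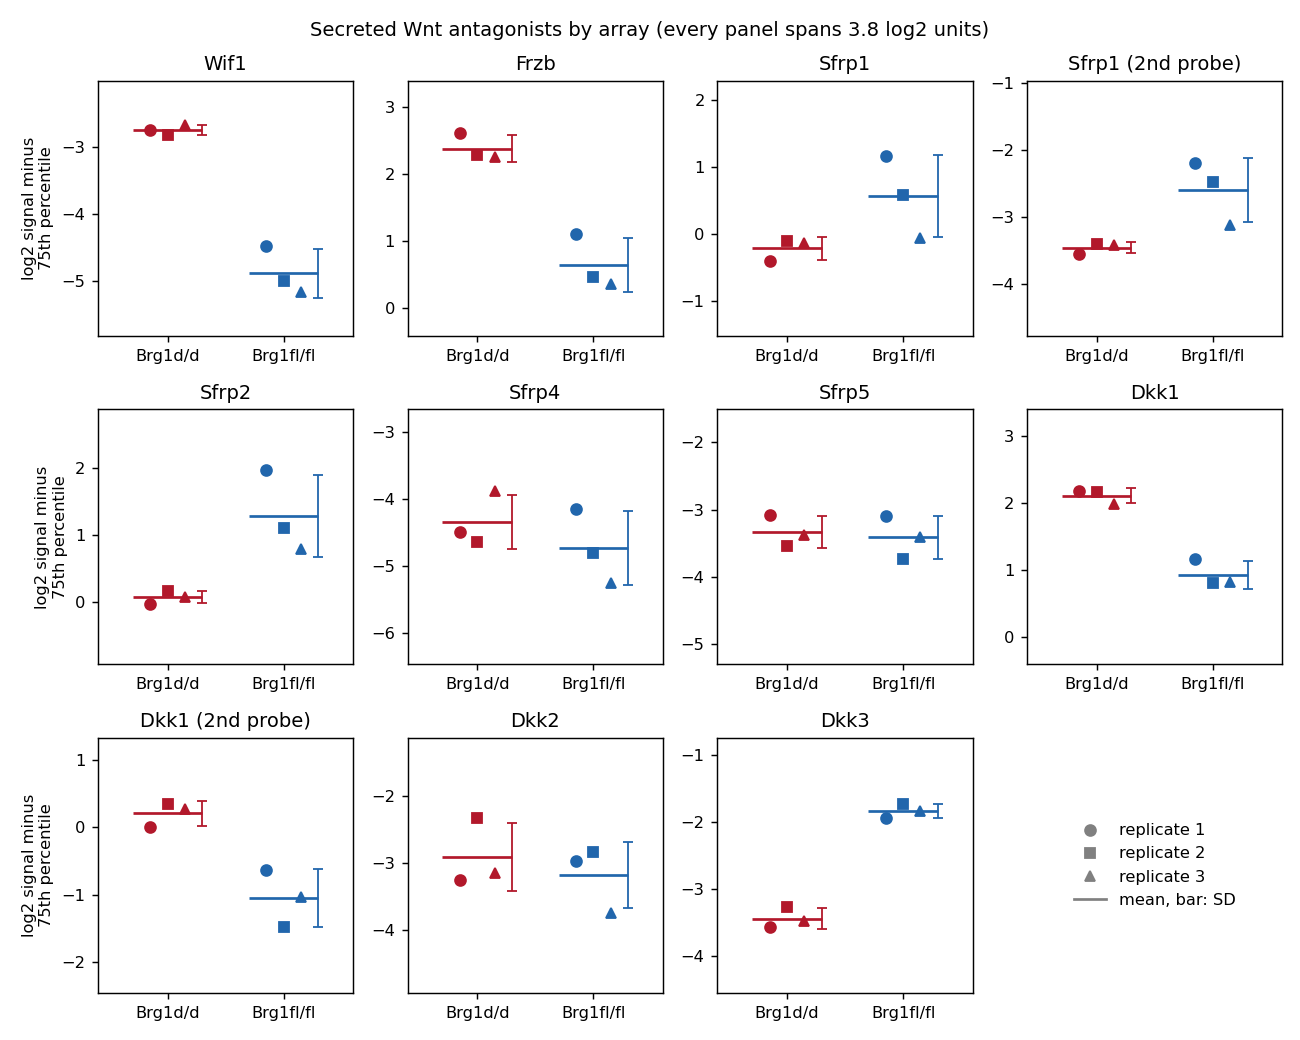
Level of each probe on each array (y axis: log2 signal less the 75th percentile of the array; symbols: replicates 1 to 3; lines and bars: mean and SD), with Brg1d/d left of Brg1fl/fl in each panel. Wif1, Frzb and both Dkk1 probes lie higher, and Dkk3 lower, in all 3 Brg1d/d samples than in any Brg1fl/fl sample, while Sfrp4, Sfrp5 and Dkk2 overlap.

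The probes of the genes that carry these results are shown here because each value below is the signal of that oligonucleotide alone. The array's annotation places them on mouse build mm7, and each is 60 bases long. The first 30 bases are printed, 5′ to 3′, and with no exon map of mm7 at hand, no probe is assigned to a coding exon or a UTR.
Wif1: ggctgatatctactcttccttttaggtttt
Frzb: gtgcaccagggtgttatttaacagaggtat
Dkk1, brighter probe: tactgtgttgtaaatcctcagtgtggcact
Dkk1, second probe: atgcagaaggaagcctgccaacttaagcca
Dkk3: gaatgaaatttgcaaagtcgcttagcaaca
Sfrp2: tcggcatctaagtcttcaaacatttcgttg
The Wif1 probe lies at chr10:120496251-120496310 on the plus strand, the Frzb probe at chr2:80256141-80256200 on the minus strand and the Dkk3 probe at chr7:108032840-108032899 on the minus strand. The Dkk1 probes lie at chr19:30246086-30246145 and chr19:30245191-30245250, both on the minus strand, with starts 895 bases apart. The Sfrp2 probe lies at chr3:83878918-83878977 on the plus strand.

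Wif1, which binds Wnt ligands through its WIF domain, had the largest rise of the 9 genes. Its level was -2.75, -2.82 and -2.67 in CKO 1, 2 and 3, against -4.47, -5.01 and -5.17 in the controls in the same order. The lowest CKO sample stood 1.65 above the highest control, and the CKO samples were closer to one another (SD 0.07) than the controls (SD 0.37). The difference was 2.14 ± 0.21 (SE, n = 3 and 3; 95% interval 1.62 to 2.65), with a limma adjusted p of 0.00492, and CKO 2 alone gave a same-day difference of 2.06. The processed signal behind it was dim, at 242, 137 and 248 units in CKO and 45.0, 31.4 and 26.6 units in control. With normexp background correction, which adds an offset of 50 to every signal, the difference was 1.04 (limma adjusted p 0.00629). Among the 787 genes that rose, Wif1 ranked 112th by size.

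Frzb (also named Sfrp3), a Frizzled-related protein that binds Wnt ligands, read 2.61, 2.28 and 2.26 in CKO, against 1.11, 0.47 and 0.37 in control. All CKO samples lay above all controls, by at least 1.15, and control 1 was the highest control. The difference was 1.73 ± 0.24 (SE, n = 3 and 3; 95% interval 1.15 to 2.31), with a limma adjusted p of 0.0127, and CKO 2 alone gave a same-day difference of 1.63. Without CKO 1, CKO 3 or control 2 the direction stayed and the limma adjusted p was 0.0638, 0.0552 and 0.0654.

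Dkk1, the Dickkopf protein that blocks Lrp6, was measured by a pair of probes that moved together. The brighter probe read 2.18, 2.16 and 1.98 in CKO, against 1.16, 0.80 and 0.81 in control. The second probe read 0.00, 0.35 and 0.28 in CKO, against -0.63, -1.48 and -1.04 in control. On each probe every CKO sample lay above every control. The differences were 1.18 ± 0.17 and 1.26 ± 0.25 (SE, n = 3 and 3), with limma adjusted p of 0.0136 and 0.0318, and the same-day differences were 1.23 and 1.40. For the brighter probe the limma adjusted p was 0.0675 without CKO 1, 0.0568 without CKO 3 and 0.0749 without control 2, with differences of 1.12 to 1.30 over the 6 fits that each left out 1 array. The second probe stayed higher but missed the threshold without CKO 1 (limma adjusted p 0.0932), CKO 3 (0.120), control 2 (0.105) or control 3 (0.0740), and with no filter on dim probes (0.0662).

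Dkk3, the divergent Dickkopf member, moved the other way. It read -3.57, -3.28 and -3.48 in CKO, against -1.94, -1.73 and -1.83 in control. The groups were separated by 1.34 and each was tight, with SDs of 0.15 in CKO and 0.11 in control. The difference was -1.61 ± 0.16 (SE, n = 3 and 3; 95% interval -1.99 to -1.23), with a limma adjusted p of 0.00472, and CKO 2 alone gave a same-day difference of -1.44. The processed signal was dim here too, at 137, 100 and 142 units in CKO and 261, 305 and 269 units in control. With normexp the difference was -1.21 (limma adjusted p 0.00330). Dkk3 was the only one of the 9 genes for which control 1 lay below the mean of the other controls (by -0.16), and its call held without any single array (adjusted p 0.00566 to 0.0347).

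Dkk2, which can block or activate Lrp6 depending on the context, overlapped between the genotypes. It read -3.26, -2.33 and -3.15 in CKO, against -2.96, -2.83 and -3.74 in control. CKO 2 was the highest of all 6 arrays, which made the same-day difference (0.85) larger than the difference over all samples, 0.27 ± 0.35 (SE; 95% interval -0.56 to 1.10, limma adjusted p 0.609). Without CKO 2 the difference was -0.020.

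**Figure D2:**
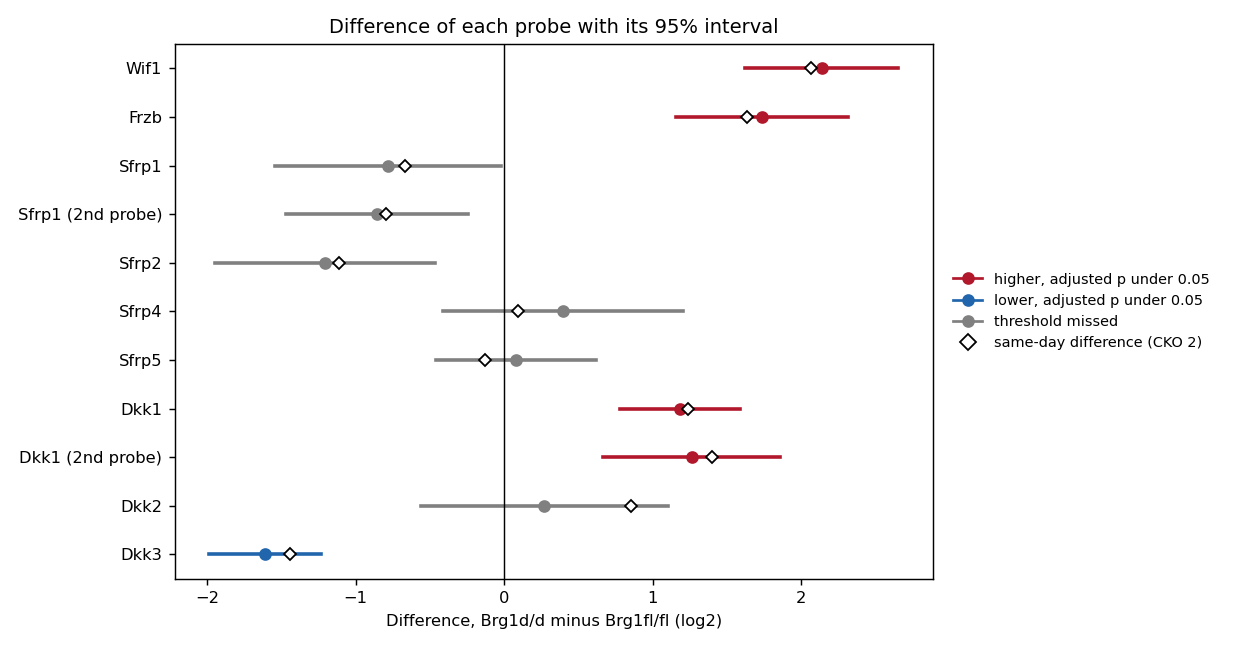
Difference of each of the 11 probes, Brg1d/d minus Brg1fl/fl, on the log2 scale (dots, with 95% intervals from limma), and the same-day difference of CKO 2 (open diamonds). Wif1, Frzb and both Dkk1 probes are higher at adjusted p under 0.05, Dkk3 is lower, and the same-day values of these lie within the intervals. Same-day values share CKO 2 and all controls with the dots, so they are no independent check.

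Sfrp2 and Sfrp1, close relatives with overlapping roles in the mouse trunk, had lower values in CKO that missed the threshold. Sfrp2 read -0.02, 0.17 and 0.08 in CKO, against 1.97, 1.10 and 0.79 in control. The genotypes did not overlap, but the controls varied (SD 0.61) far more than the CKO samples (SD 0.10), with control 1 the highest. The difference was -1.21 ± 0.31 (SE, n = 3 and 3; 95% interval -1.95 to -0.47), with a limma adjusted p of 0.0592, and CKO 2 alone gave a same-day difference of -1.11. The threshold was passed under 5 of 17 alternatives, among them median scaling (adjusted p 0.0341) and the fit without control 1 (difference -0.87, adjusted p 0.0306).

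The brighter Sfrp1 probe read -0.41, -0.10 and -0.13 in CKO, against 1.17, 0.59 and -0.05 in control. Control 3 lay 0.05 above the highest CKO sample, so the separation was thin. The second probe, 688 bases away on chromosome 8, read -3.55, -3.39 and -3.41 in CKO, against -2.19, -2.48 and -3.12 in control. Both probes ranked the controls in the same order, with control 1 highest and control 3 lowest. The differences were -0.78 ± 0.32 and -0.86 ± 0.26 (SE, n = 3 and 3), with limma adjusted p of 0.150 and 0.0825 and same-day differences of -0.67 and -0.80. The brighter probe passed under none of the 17 alternatives, and its lowest adjusted p was 0.0678, without control 3. In that same fit the second probe passed, with a difference of -1.12 and a limma adjusted p of 0.0373.

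The remaining Frizzled-related genes were low and overlapped between the genotypes. Sfrp4 read -4.50, -4.64 and -3.89 in CKO, against -4.15, -4.81 and -5.25 in control, a difference of 0.39 ± 0.34 (SE; 95% interval -0.42 to 1.20, limma adjusted p 0.441). Its difference was 0.68 without control 1, 0.13 without control 3 and 0.048 with normexp, and missed the threshold in each. Sfrp5, which in the embryo marks foregut endoderm, read -3.08, -3.55 and -3.38 in CKO, against -3.09, -3.74 and -3.41 in control. Its difference was 0.08 ± 0.23 (SE; 95% interval -0.46 to 0.62, limma adjusted p 0.831). The same-day differences of Sfrp4 and Sfrp5 were 0.09 and -0.13.

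The 4 called genes kept their direction under all 17 alternatives, and Wif1 and Dkk3 passed in 15 of them. Frzb and Dkk1 passed in 12. The fit with slide as a block, which all 4 passed, cannot separate slide from genotype, as all controls shared 1 slide. As the values of these 4 genes did not overlap between genotypes, only quantile or median scaling and normexp could have turned a direction. Blocks for scan day and for the spike-in split both leave CKO 1 and CKO 3 without weight in the comparison. Both therefore give the same-day differences and are not separate checks. With scan day as a block, a fit in which CKO 1 and CKO 3 carry no weight in the comparison, none of the 4 passed: the limma adjusted p was 0.229 for Wif1, 0.313 for Frzb, 0.286 for Dkk1 and 0.198 for Dkk3. That fit called 0 of 15015 genes (0%), with 1795 at an unadjusted p under 0.05. With the split in spike-in signal as a block the 4 adjusted p were 0.0784, 0.156, 0.128 and 0.0643, and 0.813% of all genes were called.

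**Figure D3:**
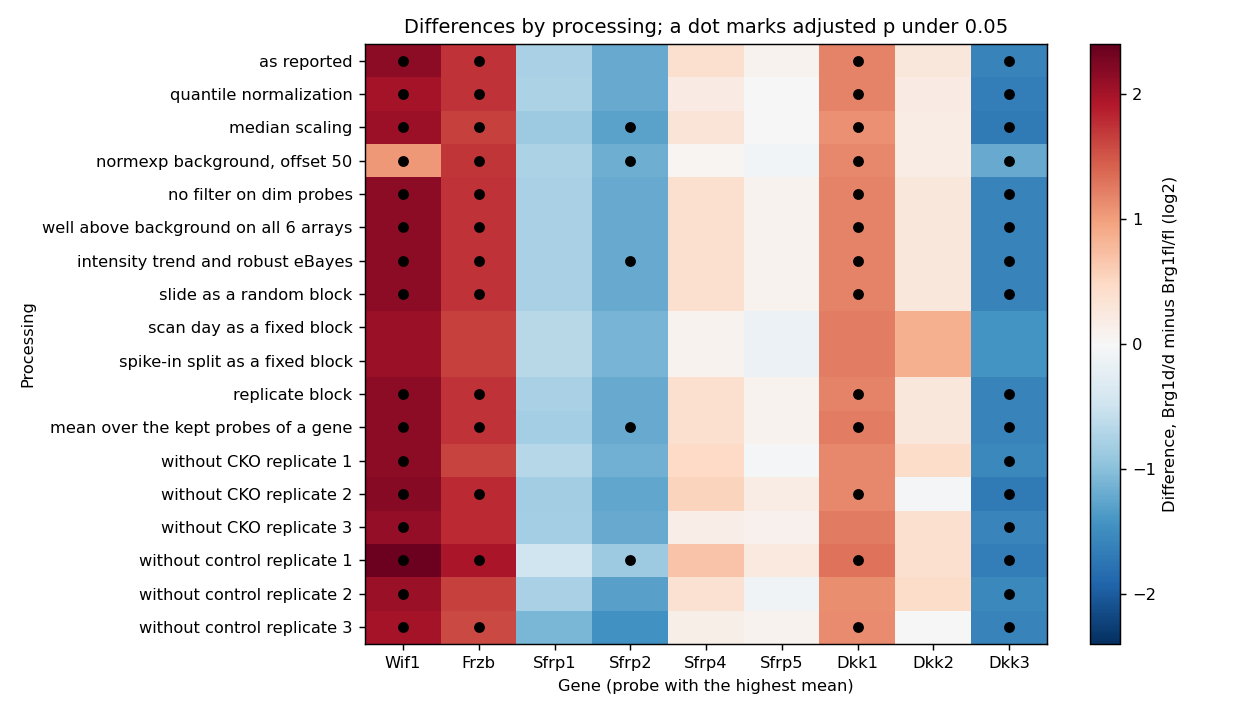
Difference of each gene under each processing alternative (colour: log2 difference, Brg1d/d minus Brg1fl/fl; dot: limma adjusted p under 0.05). Wif1, Frzb and Dkk1 stay higher and Dkk3 lower in every row, without a call when scan day or the spike-in split is a block, and Sfrp2 is called in 5 of the 17 alternatives. For Wif1, Frzb, Dkk1 and Dkk3 only the quantile, median and normexp rows could have turned the direction.

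The promoters of Wif1, Frzb and Dkk1 are shown because these genes rose together. They are the 250 bases before the RefSeq gene start (build GRCm38.p6), from a RefSeq table that holds 6 of the 9 genes and 32851 promoters in all. Capitals mark exact matches on either strand to any of 3 motifs. The core of the TCF/LEF site was searched as CTTTGA. The TATA box was searched as TATAAA. For the GC box the letters were GGGCGG. No matches overlapped in these windows. The Wif1 window is chr10:121033754-121034003 on the plus strand, the Frzb window chr2:80447397-80447646 on the minus strand and the Dkk1 window chr19:30549497-30549746 on the minus strand.
Wif1: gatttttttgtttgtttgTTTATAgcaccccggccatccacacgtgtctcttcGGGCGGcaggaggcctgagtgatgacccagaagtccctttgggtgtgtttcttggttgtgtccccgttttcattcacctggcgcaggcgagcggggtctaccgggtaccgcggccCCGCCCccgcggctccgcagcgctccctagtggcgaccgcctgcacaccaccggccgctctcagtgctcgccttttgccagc
Frzb: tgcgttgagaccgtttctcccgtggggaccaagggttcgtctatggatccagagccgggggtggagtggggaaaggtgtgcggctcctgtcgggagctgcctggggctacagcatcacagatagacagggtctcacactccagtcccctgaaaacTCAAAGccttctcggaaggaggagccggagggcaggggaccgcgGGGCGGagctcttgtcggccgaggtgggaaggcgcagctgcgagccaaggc
Dkk1: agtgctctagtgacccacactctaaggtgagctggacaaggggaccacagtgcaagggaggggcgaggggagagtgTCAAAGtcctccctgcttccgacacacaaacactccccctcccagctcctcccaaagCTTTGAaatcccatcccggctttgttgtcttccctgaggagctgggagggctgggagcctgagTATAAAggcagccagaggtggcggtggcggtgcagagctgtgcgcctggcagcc
The TCF/LEF core occurred 2 times in the Dkk1 window and 1 time in the Frzb window, and was not found in that of Wif1. Over all promoters, 13.8% held it in the same length. TATAAA was found in the Dkk1 and Wif1 windows (12.4% of all promoters) and GGGCGG in the Frzb and Wif1 windows (32.7% of all promoters). Of the members that were not called, Dkk2 held TATAAA and GGGCGG, Sfrp5 held GGGCGG, and Sfrp2 held no match. The TCF/LEF core was in none of those windows. The windows held 21 CpG pairs in Wif1, 16 in Frzb and 6 in Dkk1, where the median promoter had 6. A match here is a description of letters, and factor binding was not measured.

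The genes whose levels most resembled those of each called member over the 6 arrays were listed by Pearson correlation, as a description. For Wif1 these were Mgarp, Catsperg2 and Ercc2, for Frzb they were Magel2, Jade2 and Col5a3, for Dkk1 they were Fhdc1, Zcwpw1 and Jade2, and for Dkk3 they were S1pr1, Il1r1 and Mmrn2. The lowest of these 12 coefficients was 0.997, over 6 arrays that share the genotype difference, scan days and scaling. Between 379 and 490 other genes reached a coefficient above 0.95 with each member, so the 3 names are the top of a long list.

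The rest of the Wnt pathway was read from lists by role. Beside their counts, 5.24% of all tested genes were called higher and 5.32% lower. Among 10 tested of 11 mostly secreted modulators outside the 9 genes, 1 rose and 4 fell. Their median difference was -0.72 (same-day median -0.77), beside 0.07 over all genes. Dkkl1, a Dickkopf-like protein known from trophoblast and testis, read -0.40, -0.32 and -0.81 in CKO, against -3.28, -3.31 and -2.87 in control, a 6.23-fold rise (limma adjusted p 0.00297). Sostdc1, a secreted antagonist of Wnt and BMP signals, fell 8.16-fold (limma adjusted p 0.0360). It read -5.96, -6.03 and -5.56 in CKO, against -2.01, -2.09 and -4.36 in control. The CKO levels were thus low, and the controls varied (SD 1.34), with control 3 the lowest. Rspo1, a secreted enhancer of Wnt signalling, fell 3.02-fold (adjusted p 0.0391) and Notum, an enzyme that inactivates Wnt proteins, 2.83-fold (0.0227). The 4th fall was in Apcdd1, a membrane-bound inhibitor, at 2.41-fold (0.0315).

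Of 20 tested Wnt ligands and genes of their secretion (21 listed), 2 rose and 2 fell, with a median difference of -0.41 (same-day median -0.14). Wnt8a, a gene of the primitive streak, rose by 2.41 ± 0.47 (SE) and Wnt9b by 1.46 ± 0.27, while Wnt3a, which maintains the tail bud, fell by 1.71 ± 0.27 and Wnt2 by 1.60 ± 0.21, with limma adjusted p of 0.0306, 0.0258, 0.0180 and 0.0105. Of 17 receptors, 1 rose and 1 fell, close to the 10.6% of all genes called in either direction, with a median of -0.16. Lrp6, the co-receptor that Dkk1 binds, read -2.06, -1.40 and -1.78 in CKO, against -2.71, -2.70 and -2.88 in control, a rise of 1.02 ± 0.21 (SE, adjusted p 0.0343). Fzd5, a Frizzled receptor, fell by 1.63 ± 0.32 (SE, adjusted p 0.0323). Kremen1 and Kremen2, the partners of Dkk1 at the cell surface, missed the threshold at -0.11 ± 0.44 and 0.94 ± 0.80 (SE; adjusted p 0.875 and 0.439).

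Of 16 genes commonly induced by Wnt signalling, 3 fell and 0 rose, with a median of -0.21. They were Nkd2, at -1.92 ± 0.32 (SE), Cdx4, at -1.78 ± 0.39, and Nkd1, at -1.70 ± 0.26, with limma adjusted p of 0.0207, 0.0421 and 0.0164. Nkd1 and Nkd2 encode feedback inhibitors inside the cell and Cdx4 a factor of the posterior axis. Axin2, a widely used readout of the pathway, missed the threshold at 0.12 ± 0.41 (SE, adjusted p 0.865), and its same-day difference was -0.55.

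**Figure D4:**
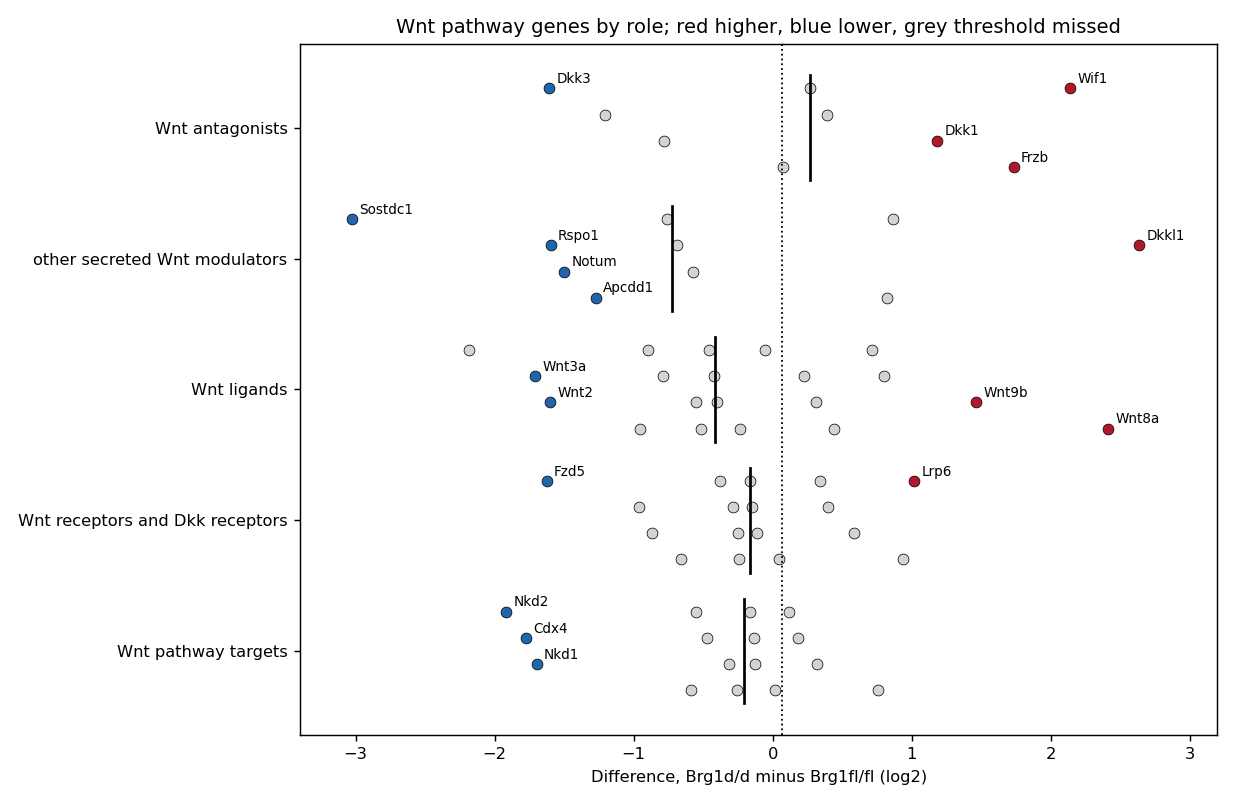
Differences, Brg1d/d minus Brg1fl/fl (x axis, log2), of the measured genes of each Wnt list (1 dot per gene; red and blue: higher and lower at limma adjusted p under 0.05, named; black bar: list median; dotted line: median of all tested genes, 0.07). Calls run both ways among antagonists, other modulators, ligands and receptors, and the 3 calls among targets are falls.

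Tissue markers differed between the genotypes and among the controls. The counts of calls below stand beside 10.6% of all genes called in either direction. Summed signal is given in multiples of the array's 75th percentile. Trophoblast markers summed to 12.7 to 18.6 in CKO and 3.35 to 5.40 in control, with 5 of 6 measured genes called higher, while Tpbpa and Gcm1 were too dim to be tested. Hand1 and Tfap2c were the brightest of the 6 and weigh most in the sum. Prl3d1 overlapped between the genotypes, at 0.95, 0.61 and -2.11 in CKO, against -4.64, -3.87 and -1.48 in control. Neural markers summed to 4.48 to 4.69 in CKO and to 13.5, 8.79 and 6.24 in controls 1, 2 and 3 (4 of 8 lower, 1 higher). Markers of paraxial mesoderm and somites summed to 3.05 to 3.40 in CKO (3 of 8 lower). In controls 1, 2 and 3 they summed to 18.1, 6.48 and 7.57, so the top of the control range was control 1 alone. Markers of embryonic endoderm summed to 15.7 to 20.7 in CKO and 10.8 to 14.0 in control (1 of 6 higher). Heart markers summed to 12.4 to 18.0 in CKO and to 202, 145 and 140 in controls 1, 2 and 3 (8 of 9 lower). Each of these lists had measured members in both genotypes. Of the genes called lower, En1 (neural) was well above background on 0 CKO arrays and Lfng (somites) on 1. Both were so on all 3 control arrays and passed the filter through control alone. The sizes of their falls thus depend on CKO values near background.

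In control 1 the markers of visceral endoderm and yolk sac summed to 116, against 490 and 526 in controls 2 and 3 and 449 to 552 in CKO, and none of those 10 genes was called between genotypes. Control 1 markers of primitive red cells summed to 70.5, against 254 and 282 in controls 2 and 3, and 65.0 to 78.7 in CKO, with 0 of 8 called by limma. Among the Wnt antagonists 8 of 9 had a control 1 level above the mean of the other controls, by 1.02 for Sfrp2, 0.90 for Sfrp1, 0.69 for Frzb, 0.62 for Wif1 and 0.35 for Dkk1. So did 8 of 10 other modulators, 19 of 20 ligands, 13 of 17 receptors and 15 of 16 targets, beside 8527 of 15015 tested genes. In the neural list and the somite list all 8 genes did, and in the heart list all 9. Without control 1 the differences were 2.34 for Wif1, 1.96 for Frzb, 1.30 for Dkk1 and -1.66 for Dkk3, all past the threshold. In that fit Sfrp2, at -0.87, passed too, and Sfrp1, at -0.48, did not. The measured decidua and uterus markers ran both ways, with 1 of 5 higher and 2 lower. Prl8a2, a prolactin gene of the decidua, read -1.18, -1.59 and -2.52 in CKO, against -7.96, -6.92 and -3.83 in control. Its probe was well above background on 1 of 3 control arrays, so it passed the filter through CKO alone. The difference was 4.47 ± 1.03 (SE, limma adjusted p 0.0459), with a size that depends on control values near background. Lum and Des fell, by 4.65 and 2.37, and are expressed in mesenchyme and muscle of the embryo as well. With members that ran both ways, the list's sum (0.90 to 1.19 in CKO and 3.29 to 10.5 in control) gives no direction for maternal tissue, and Pgr, Esr1 and Prl3c1 were well above background on too few arrays to be tested. The part of these tissue differences in the results on the Wnt antagonists was not tested.

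**Figure D5:**
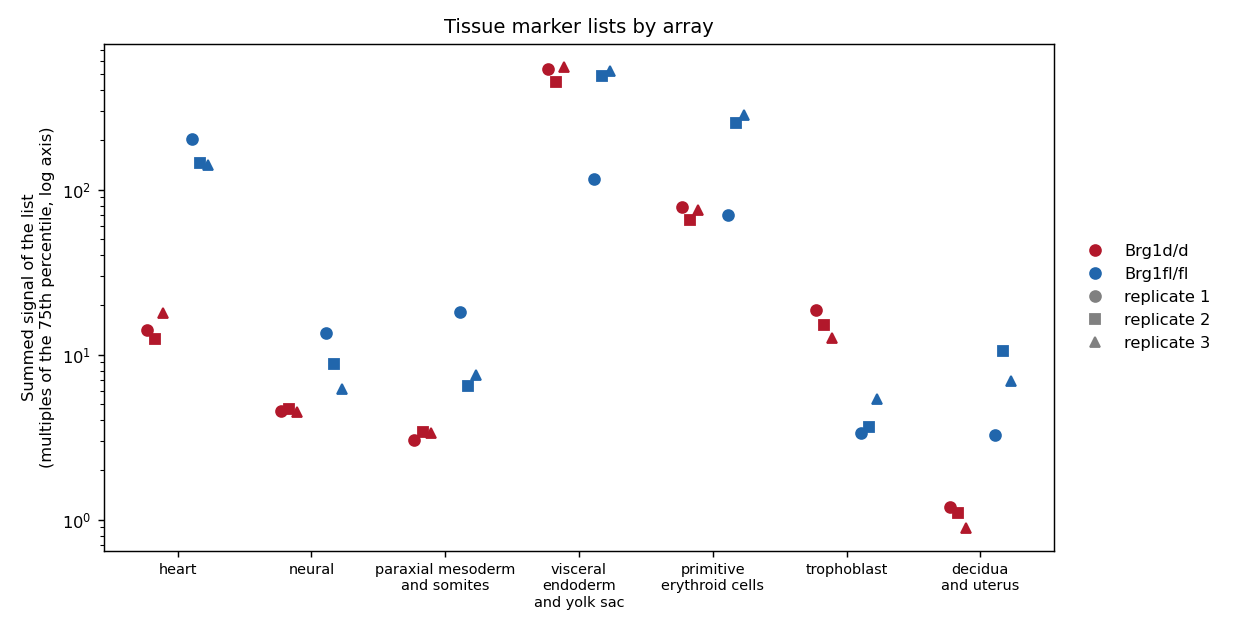
Summed signal of each tissue marker list on each array (y axis: multiples of the array's 75th percentile, log scale; Brg1d/d left of Brg1fl/fl; symbols: replicates 1 to 3). Trophoblast markers are higher and heart, neural and somite markers lower in all 3 Brg1d/d samples, and the decidua list holds members called in opposite directions (Prl8a2 higher, Lum and Des lower). Control 1 is low in yolk sac and red cell markers and the highest control in heart, neural and somite markers.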

How the data were processed

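Per the labels, a Qiagen kit was used for RNA purification, and Cy3 labelling started from 250 ng. The deposited scanner files hold intensity values made with Agilent Feature Extraction 9.5, per the submitters' processing notes. Per the file headers, the processed intensity is background-subtracted and detrended, with no scaling between arrays, and other deposited columns are flags of 0 or 1. The deposited series table equalled it at 100% of spots (relative tolerance 0.0001).

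From log2 processed signal, the array's 75th percentile (957.5 to 1627 units) was subtracted, without control spots and 53 to 83 outlier spots, and spots of a probe were averaged. A probe was tested if it had a value on all 6 arrays and if 1 genotype or both had it well above background throughout. Of 41174 probes, 32719 were named through the reference table, and each gene was represented by its brightest tested probe. The fit used limma 3.58.1 (lmFit and eBayes) in R 4.3.3, with 27831 probes in the Benjamini-Hochberg adjustment and 0.05 as threshold, and was tested on simulated data. Figures were drawn with Python 3.11.15 and matplotlib 3.10.9.

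The members, lists and tests were chosen with earlier results of these data known. Named genes were all member probes, Smarca4, up to 4 called genes of largest difference in each Wnt list, and the 3 genes most correlated with each called member. Apcdd1, Kremen1, Kremen2, Axin2, Dkk4, Prl8a2, Lum and Des were named outside that rule, with values seen. So were the tissue markers Hand1, Tfap2c, Prl3d1, En1, Lfng, Tpbpa, Gcm1, Pgr, Esr1 and Prl3c1. Alternatives were other scalings (quantile, median), normexp, other filters on dim probes, an intensity trend, blocks for slide, scan day, spike-in split and replicate number, averaged probes, and each array left out in turn.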

Additional observations from a re-analysis of the deposited data

How the results depend on the processing

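Over 17 alternatives, 3 Wnt antagonist genes were called higher, except 0 with scan day or the spike-in split as a block and 1 (Wif1) when CKO 1, CKO 3 or control 2 was left out (1 to 3 over the arrays left out in turn). The count called lower was 1, except 0 under those 2 blocks, and 2 (Dkk3 and Sfrp2) with median scaling, normexp, the intensity trend, the mean of a gene's probes, or without control 1 (1 to 2 over the arrays left out in turn). Signs turned only for Sfrp5 and Dkk2, which passed nowhere. Sfrp5 was -0.0068 with median scaling, -0.069 with normexp, -0.13 with scan day or the spike-in split as a block, and -0.086 to 0.24 with 1 array left out (-0.051 if that was CKO 1, -0.086 if control 2). Dkk2 was -0.020 to 0.44 with 1 array left out (-0.020 if that was CKO 2, -0.0097 if control 3). Over all tested genes 1586 were called, against 694 with no filter on dim probes, 122 with the spike-in split as a block and 0 with scan day as a block (limma, 1795 at an unadjusted p under 0.05). Leaving out 1 array gave 309 to 2533 calls: 335 if CKO 1, 2533 if CKO 2, 329 if CKO 3, 309 if control 2 and 932 if control 3 was the one. With the replicate number as a block 572 genes were called, and the same 4 Wnt antagonists passed through their brightest probes, while the second Dkk1 probe missed the threshold (adjusted p 0.0860). Whether the numbers pair the samples could not be decided from 3 arrays per genotype. Deviations from the group means correlated at -0.13, 0.08 and 0.09 for same-numbered arrays, and not every array correlated best with its own number. Where calls were lost the cause was not tested. Dim probes, such as those of Wif1, Sfrp4 and Dkk3, are limited by signal over background.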

Other observations

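Dkk4, the other Dickkopf gene on the array and not among the 9 genes, was looked at after the values were seen. Of 3 arrays per genotype, 1 CKO array and 0 control arrays had its probe well above background, too few for a test. Its level was -6.23, -8.72 and -8.79 in CKO, compared with -7.32, -8.31 and -9.08 in control, and the genotypes overlapped.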
